A study of Homo sapiens with 6 samples.

Results

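Splicing of messenger RNA precursors is steered by RNA-binding proteins that bind exons and introns and by the kinases that act on them. The genes described here are 42 such regulators, taken by name from the 60624 genes of the deposited expression table: 11 SR proteins (SRSF1 to SRSF11), 2 TRA2 splicing activators, 4 CLK kinases, 16 hnRNPs, 4 SR-related proteins (RBM39, SRRM1, SRRM2 and SON), 2 cold-inducible RNA-binding proteins (CIRBP and RBM3) and 3 LUC7-like proteins. All 42 were found in the table by symbol, and 41 were abundant enough to be tested. The cells were SV-HUC-1, a line derived from human urothelium and immortalised with SV40, which limits it as a model of normal bladder lining. The 3 control libraries came from cells given a blank solution, and the other 3 from cells given 2,6-dichloro-1,4-benzoquinone (DCBQ), a halogenated quinone known as a byproduct of water disinfection. Both groups were kept for 3 days, and no concentration is given in the sources used here. No genetic change or further agent separates the groups, and all 6 libraries were made from poly(A)-selected RNA.

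SR proteins carry RNA-recognition motifs and a tail rich in arginine and serine. They mostly bind exonic enhancers, help U1 and U2 snRNPs to recognise splice sites, and favour exon inclusion. CLK kinases phosphorylate these tails in the nucleus and release SR proteins from nuclear speckles. The hnRNPs coat nascent transcripts and often repress splice sites or hold exons out, so the outcome at many exons depends on the balance between the 2 families. Most SR genes, and several hnRNP and CLK genes, carry conserved alternative exons or retained introns through which the protein or kinase activity limits its own messenger RNA.

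Values are TPM, a transcript abundance, scaled for gene length and library total, so they can be compared between genes, but the sequencing depth behind them is unknown. A gene was tested if its mean over the 6 libraries was at least 1 TPM. A difference is DCBQ minus control on the scale log2(TPM + 1), and a gene is called higher or lower where limma's adjusted p, over all 16734 tested genes, was under 0.05. The labels do not name separate cultures within a group, so every p-value here measures the spread among 3 libraries a group, which can be purely technical. The median tested gene differed by -0.21 as deposited and by -0.006 after median-of-ratios scaling, which sets each library by its median gene, and small decreases in TPM have to be read against that shift. The 13 mRNAs encoded in the mitochondrial genome took 16.6% to 17.5% of all TPM in the controls and 23.7% to 24.4% in DCBQ. Of 11 urothelial or epithelial markers 10 had a mean of at least 1 TPM (TP63 did not), and their sum was 4421 to 4608 TPM in the controls and 6112 to 6432 TPM in DCBQ. Of 6 fibroblast markers COL1A2, COL3A1, DCN and LUM were at 0 in every library, and the sum was 6.17 to 7.27 TPM in the controls and 13.9 to 15.9 TPM in DCBQ, nearly all COL1A1. The 6 immune markers, LYZ at 0 among them, had a sum of 3.82 to 5.502 TPM in the controls and 10.3 to 11.01 TPM in DCBQ. The 4 endothelial markers, none at 0 throughout, summed to 6.53 to 7.45 TPM in the controls and 8.52 to 14.7 TPM in DCBQ. The part of these marker sums in the results was not tested.

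Promoter sequence from RefSeq (build GRCh38.p14, 250 bases before to 50 after the start) was found for 38 of the 42 genes, and SRSF2, TRA2A, HNRNPA1 and RBM39 had no entry. The 5 stretches below are upstream of genes whose change was among the steadiest in the data, 3 that fell (CIRBP, CLK4, TRA2B) and 2 that rose (HNRNPC, HNRNPD). They are cut to bases that lie in no annotated exon. Those of TRA2B and HNRNPC lie between genes, and those of CLK4, HNRNPD and CIRBP lie in introns of longer annotated transcripts of the same gene, with CIRBP also inside the antisense gene CIRBP-AS1. Capitals mark matches, on either strand, to any of 9 motifs.
CIRBP, chr19:1269082-1269265, plus strand: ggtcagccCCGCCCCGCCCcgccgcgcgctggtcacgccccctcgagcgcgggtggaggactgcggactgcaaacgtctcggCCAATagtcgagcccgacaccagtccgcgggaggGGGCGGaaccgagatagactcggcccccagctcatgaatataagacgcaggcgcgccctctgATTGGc
CLK4, chr5:178627115-178627300, minus strand: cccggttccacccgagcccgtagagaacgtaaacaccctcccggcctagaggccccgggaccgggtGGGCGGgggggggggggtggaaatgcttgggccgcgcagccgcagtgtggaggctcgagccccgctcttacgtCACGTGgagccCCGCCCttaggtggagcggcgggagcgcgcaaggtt
TRA2B, chr3:185938137-185938264, minus strand: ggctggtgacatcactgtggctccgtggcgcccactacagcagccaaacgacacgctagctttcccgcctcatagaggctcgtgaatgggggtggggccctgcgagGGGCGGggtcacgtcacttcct
HNRNPC, chr14:21269495-21269692, minus strand: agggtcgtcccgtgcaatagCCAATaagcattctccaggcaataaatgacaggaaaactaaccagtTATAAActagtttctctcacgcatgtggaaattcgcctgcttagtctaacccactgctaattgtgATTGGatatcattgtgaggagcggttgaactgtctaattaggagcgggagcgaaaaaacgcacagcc
HNRNPD, chr4:82373992-82374118, minus strand: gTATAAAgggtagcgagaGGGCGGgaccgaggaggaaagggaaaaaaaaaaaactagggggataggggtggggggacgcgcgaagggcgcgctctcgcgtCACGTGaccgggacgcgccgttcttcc
The capitals are GC boxes for SP1 (GGGCGG) in CIRBP, CLK4, TRA2B and HNRNPD, CCAAT boxes (CCAAT) in CIRBP and HNRNPC, E-boxes (CACGTG) in CLK4 and HNRNPD, and TATA boxes (TATAAA) in HNRNPC and HNRNPD. In CIRBP the first 2 GC boxes overlap each other. Among the 38 promoters the GC box was found in 52.6%, against 43.8% of all 27305 promoters of the same length. The CCAAT box was found in 52.6% against 35.6%, the E-box in 18.4% against 7.3%, and the TATA box in 10.5% against 12.1%. An ETS site (CCGGAAG) was found in 13.2% against 10.6%, and a heat shock element core (GAANNTTC) in 10.5% against 7.0%, in SRSF8, HNRNPA2B1, HNRNPC and RBM3. The other motifs searched, an ATF4 composite core (TGATGNAA), a CRE (TGACGTCA) and the NRF1 palindrome, matched 0 of the 38 and 3.8%, 1.9% and 1.3% of all promoters. The regulators' promoters held a median of 31.5 CpG dinucleotides (range 3 to 48) against 13 over all promoters. The motif shares above were not matched for this difference, and the letters of the GC box and the E-box contain a CpG. Genes that rose under every alternative and genes that fell under every alternative had similar medians, 33 and 36 CpG over 6 and 7 promoters. These matches are a description of letters and were not tied to any measurement of binding.

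Among the 42 regulators HNRNPA2B1, HNRNPM, SRSF9, HNRNPD and SRSF2 rose most. CIRBP fell most, followed by CLK4, LUC7L, CLK1, TRA2B, RBM39 and SRSF6. Both the hnRNPs and the SR proteins held genes that were higher and genes that were lower. Another 6 SR proteins were lower as deposited, but none of these 6 was called lower after median-of-ratios scaling. Of the 41 tested genes 9 were higher, against 13.4% of all tested genes, and 22 were lower, against 39.5%. Among tested genes with a mean of at least 10 TPM, the range in which all 41 lie, 16.7% were higher and 50.1% lower. These shares were close to the 22.0% and 53.7% of the regulators, so as deposited the set did not stand apart in number of calls. The control and DCBQ libraries did not overlap for 33 of the 41, against 61.2% of all tested genes. That share was not computed for genes of at least 10 TPM, so it does not show whether the set stands apart. By family, 16 SR, TRA2 and CLK genes gave 2 higher and 10 lower, with a median difference of -0.27. The 16 hnRNPs gave 7 higher and 5 lower, with a median of 0.00. The remaining 9 genes gave 0 higher and 7 lower, with a median of -0.45. The split between higher and lower depended on scaling. After median-of-ratios scaling the 41 gave 16 higher and 9 lower (39.0% and 22.0%, against 23.7% and 23.2% of all tested genes). After quantile normalization they gave 12 higher and 14 lower (29.3% and 34.1%, against 22.8% and 23.7%). In the same order, the SR, TRA2 and CLK genes gave 5 higher and 4 lower, then 4 and 6. The hnRNPs gave 10 and 0, then 7 and 2, and the other 9 genes gave 1 and 5, then 1 and 6. A lower value in these bulk cultures can mean fewer cells of a kind or less RNA in each, which cannot be told apart.

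Of the 31 genes called, 16 kept both their call and their sign under all 19 alternative settings. These were 8 that rose (SRSF2, SRSF9, HNRNPA1, HNRNPA2B1, HNRNPA3, HNRNPC, HNRNPD and HNRNPM) and 8 that fell (SRSF6, TRA2B, CLK1, CLK4, RBM39, CIRBP, LUC7L and LUC7L2). Another 14 of the 41 changed sign in at least 1 alternative, and their directions are given below only as deposited or with the scaling named.

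**Figure D1:**
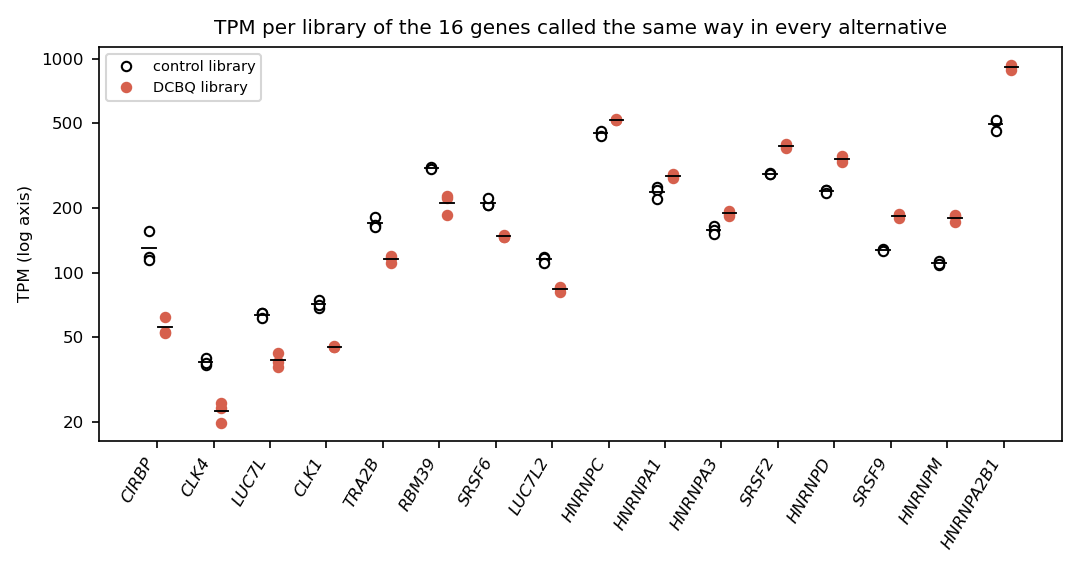
TPM (log axis) in each of the 3 control (open) and 3 DCBQ (filled) libraries, with the group mean as a bar, for the 16 genes whose call held under every alternative. In each of the 16 the groups do not overlap, and HNRNPA2B1 is the most abundant, at 496 TPM in the controls and 915 TPM in DCBQ.

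Among the 11 SR proteins, SRSF2 and SRSF9 rose and 7 others were lower, of which SRSF6 alone was still called lower after median-of-ratios scaling. SRSF2 (SC35, chromosome 17, 76734115 to 76737374, minus strand) is a speckle component and exon-inclusion factor. It measured 291, 291 and 290.4 TPM in the controls and 401, 391 and 381 TPM in DCBQ. Every DCBQ library was well above the controls, which lay within 1 TPM of each other. The means were 291 ± 0.47 and 391 ± 9.6 TPM (SD, n = 3 per group), a 1.344-fold rise (log2 difference 0.43, SE 0.037, limma adjusted p = 4.2e-05). SRSF9 (chromosome 12, 120461668 to 120469793, minus strand), a small SR protein with a short arginine-serine tail, measured 129, 127 and 126 TPM in the controls and 188, 179.9 and 186 TPM in DCBQ. Here too the groups were far apart, and the rise was 1.45-fold (0.53, SE 0.040, limma adjusted p = 2.1e-05). SRSF2 went from 16.1% of the summed SR protein TPM to 22.6%, and SRSF9 from 7.06% to 10.7%. SRSF2 shares 1106 exonic bases with MFSD11 on the opposite strand and SRSF9 shares 1729 with GATC. MFSD11 was at 15.6 to 19.4 TPM and GATC at 41.7 to 48.0 TPM in all libraries, and whether counting used strand is not stated.

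SRSF6 (SRp55, chromosome 20, 43457928 to 43464247, plus strand), an enhancer-binding SR protein, fell furthest in the family on a call that held throughout. It measured 206, 207 and 224 TPM in the controls and 151, 146 and 146 TPM in DCBQ, with no overlap. The fall was 1.44-fold (-0.52, SE 0.047, limma adjusted p = 5.1e-05), and its share of the summed SR protein TPM went from 11.8% to 8.53%. The founding member SRSF1 (ASF/SF2) measured 226, 206 and 239.7 TPM in the controls and 195, 191 and 199 TPM in DCBQ. Its lower call (-0.19, limma adjusted p = 0.023) was unsteady: it was lost without control 1, control 3, DCBQ 1 or DCBQ 2, and the difference was 0.05 after median-of-ratios scaling. SRSF4 (SRp75), the longest-tailed member, measured 141, 126 and 122 TPM in the controls and 106, 102 and 108 TPM in DCBQ (-0.29, limma adjusted p = 0.0045). SRSF5 (SRp40) measured 268, 271 and 312 TPM in the controls and 211, 241 and 253 TPM in DCBQ (-0.27, limma adjusted p = 0.024), and its call was lost without control 3 or DCBQ 1. In these 3 genes the groups lay narrowly apart.

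SRSF10, which represses splicing when dephosphorylated after heat shock, measured 104, 103 and 94.1 TPM in the controls and 72.9, 91.9 and 84.5 TPM in DCBQ (-0.27, limma adjusted p = 0.027). Its call was lost without control 1, control 2, DCBQ 1 or DCBQ 3. SRSF11 (p54) measured 161, 167 and 146 TPM in the controls and 121, 142 and 123 TPM in DCBQ (-0.30, limma adjusted p = 0.011). SRSF8, a retrogene copy of SRSF2 that can share reads with it and the least abundant of the family, measured 14.3, 18.2 and 17.7 TPM in the controls and 12.2, 12.3 and 14.3 TPM in DCBQ (-0.35, limma adjusted p = 0.032). That call was lost without control 2, control 3, DCBQ 1 or DCBQ 2. In each of these 3 genes the highest DCBQ library lay just under the lowest control. SRSF4, SRSF5, SRSF8, SRSF10 and SRSF11 were not called after median-of-ratios scaling, where they differed by -0.05, -0.03, -0.12, -0.03 and -0.06. Their decreases as deposited were thus near that of the median gene.

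The other members of the family were not called as deposited. SRSF3, the smallest SR protein and an mRNA export adaptor, measured 126, 121 and 129 TPM in the controls and 128, 134 and 131 TPM in DCBQ, with overlap (0.06, limma adjusted p = 0.27). After median-of-ratios scaling it was higher by 0.30 (limma adjusted p = 0.00088). SRSF7 (9G8), its close relative, measured 149, 132 and 125 TPM in the controls and 121, 116 and 121 TPM in DCBQ (-0.18, limma adjusted p = 0.054), and it was called lower without control 3.

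TRA2A and TRA2B are paralogous activators that bind GAA-rich exonic enhancers, and 1 of the 2 was called as deposited. TRA2B (chromosome 3, 185915906 to 185938136, minus strand) measured 181, 167 and 164 TPM in the controls and 120.1, 111 and 117 TPM in DCBQ. The groups lay far apart, a 1.47-fold fall (-0.55, SE 0.055, limma adjusted p = 8.6e-05). TRA2A measured 110.5, 117 and 107 TPM in the controls and 102, 118 and 107 TPM in DCBQ, and the groups overlapped (-0.03, limma adjusted p = 0.7). After median-of-ratios scaling TRA2A was higher by 0.21 (limma adjusted p = 0.017), but after quantile normalization it was not called (0.10, limma adjusted p = 0.28). The ratio of TRA2B to TRA2A was 1.64, 1.42 and 1.54 in the controls and 1.18, 0.935 and 1.09 in DCBQ, without overlap. A ratio within a library is not changed by a single scaling factor per library, as in median-of-ratios scaling, but quantile normalization can change it. With 3 libraries against 3, an exact two-sided permutation test of such a ratio cannot give a p below 0.1, so none is given for the ratios below.

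The CLK kinases showed the same division. CLK1 (chromosome 2, 200853009 to 200864744, minus strand), whose activity controls splicing of its own transcript, measured 68.0, 74.2 and 70.7 TPM in the controls and 45.3, 44.7 and 44.9 TPM in DCBQ. The DCBQ libraries were within 1 TPM of each other and all below the controls. The fall was 1.58-fold (-0.65, SE 0.052, limma adjusted p = 3.1e-05). CLK4 (chromosome 5, 178602664 to 178630615, minus strand), the closest paralogue of CLK1, measured 39.7, 37.0 and 37.6 TPM in the controls and 19.8, 24.4 and 23.2 TPM in DCBQ, a 1.70-fold fall (-0.74, SE 0.086, limma adjusted p = 0.00019). CLK3 measured 59.6, 55.3 and 52.5 TPM in the controls and 53.7, 53.5 and 60.3 TPM in DCBQ, with overlapping groups (-0.00, SE 0.071, limma adjusted p = 0.997). It was called higher after median-of-ratios scaling (0.24, limma adjusted p = 0.023) and after quantile normalization (0.21, limma adjusted p = 0.035). The ratio of CLK1 to CLK3 was 1.1405, 1.3404 and 1.3465 in the controls and 0.844, 0.836 and 0.744 in DCBQ. The ratio of CLK4 to CLK3 was 0.666, 0.668 and 0.715 in the controls and 0.369, 0.457 and 0.384 in DCBQ, so both ratios separated the groups. CLK3 shares 701 exonic bases with EDC3 on the opposite strand, which was at 34.0 to 39.6 TPM.

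CLK2 (chromosome 1, 155262868 to 155278491, minus strand), the remaining kinase of the family, is listed at 0 in all 6 libraries and was not tested. Of 14 other protein-coding genes within 100000 bases of it, 4 are also listed at 0 in every library, among them its direct neighbours SCAMP3, HCN3 and PKLR. FDPS, just beyond them, was at 178 to 242 TPM. A listed 0 over a run of neighbours can be a missing estimate, so nothing is read from it about the kinase.

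**Figure D2:**
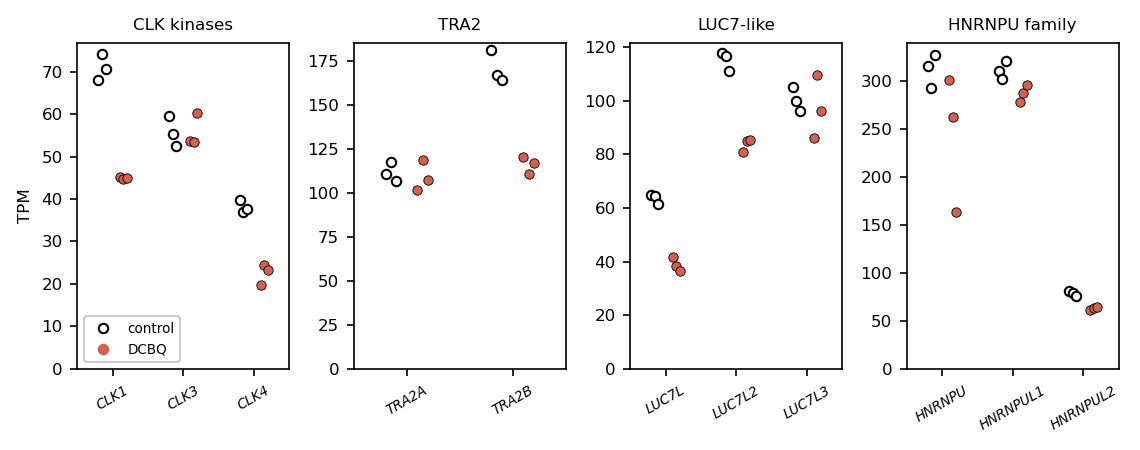
TPM per library (control open, DCBQ filled; axes from 0) within 4 paralogue groups. CLK1 and CLK4 fell while CLK3 overlapped, TRA2B fell while TRA2A overlapped, LUC7L and LUC7L2 fell while LUC7L3 overlapped, and 1 DCBQ library of HNRNPU lies at 164 TPM, far under the other values of that gene.

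Among the hnRNPs the rises were led by HNRNPA2B1 (chromosome 7, 26173057 to 26201529, minus strand), an A/B-type hnRNP that binds UAG-containing RNA and sorts microRNAs and m6A-marked transcripts. It measured 509.8, 519 and 459.7 TPM in the controls and 917, 889 and 938 TPM in DCBQ. All DCBQ libraries lay far above the controls, with means of 496 ± 32 and 915 ± 24 TPM (SD, n = 3 per group). This was a 1.84-fold rise (0.88, SE 0.053, limma adjusted p = 6.4e-06). It took 10.5% of the summed hnRNP TPM in the controls and 17.8% in DCBQ, where it passed HNRNPH1 as the most abundant of the family. HNRNPM (chromosome 19, 8444767 to 8489114, plus strand), a regulator of splicing in the epithelial-mesenchymal transition, measured 108, 113 and 110.0 TPM in the controls and 185, 173 and 185 TPM in DCBQ. It rose 1.64-fold (0.71, SE 0.045, limma adjusted p = 9.8e-06). HNRNPD (AUF1, chromosome 4, 82352498 to 82374503, minus strand), which binds AU-rich elements and controls mRNA decay, measured 244, 243 and 235 TPM in the controls and 352, 328 and 342 TPM in DCBQ. Its rise was 1.41-fold (0.50, SE 0.042, limma adjusted p = 3.7e-05), again without overlap.

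Smaller rises were found in 4 core hnRNPs. HNRNPA1, the best known repressor of splice sites, measured 252, 244 and 220.3 TPM in the controls and 283, 289.6 and 277 TPM in DCBQ (0.25, limma adjusted p = 0.0055). HNRNPA3, a paralogue of it, measured 165, 159 and 151 TPM in the controls and 189, 194 and 185 TPM in DCBQ (0.26, limma adjusted p = 0.0021). HNRNPC, which binds uridine tracts and keeps Alu elements from becoming exons, measured 449, 460.4 and 435 TPM in the controls and 516, 517 and 526 TPM in DCBQ (0.21, limma adjusted p = 0.0017). In each of these 3 the lowest DCBQ library was above the highest control, and none changed call under any alternative. HNRNPL, a binder of CA repeats, measured 269, 285 and 264 TPM in the controls and 295, 308 and 300.1 TPM in DCBQ (0.15, limma adjusted p = 0.023). That call was lost without control 1, control 3, DCBQ 2 or DCBQ 3.

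A further 5 hnRNPs were lower as deposited, and none of the 5 was called lower after median-of-ratios scaling. HNRNPH1, which binds G-runs and is the most abundant hnRNP of the controls, measured 864, 822 and 763 TPM in the controls and 635, 690.2 and 655 TPM in DCBQ (-0.30, limma adjusted p = 0.002), against -0.06 after that scaling. After quantile normalization HNRNPH1 (-0.29, limma adjusted p = 0.016) and, barely, HNRNPUL2 (-0.13, limma adjusted p = 0.04996) were still called lower. HNRNPUL2 measured 80.6, 78.8 and 75.4 TPM in the controls and 61.8, 63.4 and 64.1 TPM in DCBQ (-0.31, limma adjusted p = 0.001). It shares 2391 exonic bases with the readthrough gene HNRNPUL2-BSCL2, listed at 7.58, 0 and 16.1 TPM in the controls and at 17.9, 18.7 and 20.5 TPM in DCBQ. With both summed the means were 86.2 ± 6.6 and 82.1 ± 2.5 TPM, and the groups overlapped, so the lower call depends on how reads were divided between the 2 genes. HNRNPA0, an intronless member that binds AU-rich RNA, measured 46.5, 45.4 and 46.2 TPM in the controls and 37.6, 40.1 and 40.2 TPM in DCBQ (-0.22, limma adjusted p = 0.0086), against 0.01 after median-of-ratios scaling. HNRNPK, a KH-domain binder of poly(C), measured 637, 618 and 596 TPM in the controls and 542, 575 and 558 TPM in DCBQ (-0.14, limma adjusted p = 0.019), against 0.10. HNRNPUL1 measured 311, 302 and 321 TPM in the controls and 279, 288 and 296 TPM in DCBQ (-0.11, limma adjusted p = 0.049), against a higher value, 0.13 (limma adjusted p = 0.049). The call of HNRNPK was lost without control 1, control 2, DCBQ 1 or DCBQ 3, and that of HNRNPUL1 whichever of the 6 libraries was left out.

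HNRNPU (SAF-A, chromosome 1, 244840638 to 244864560, minus strand), a scaffold protein of chromatin, varied most between libraries. It measured 316, 293 and 327 TPM in the controls and 301, 263 and 164 TPM in DCBQ. DCBQ 1 lay among the controls and DCBQ 3 far under them, and the gene was not called (-0.41, SE 0.19, limma adjusted p = 0.11). Without DCBQ 1 the difference was -0.58 and was called (limma adjusted p = 0.034). It shares 3502 exonic bases with COX20 on the opposite strand, which was at 10.7 to 13.7 TPM. HNRNPF, HNRNPH3 and HNRNPR were not called, with differences of -0.01, -0.09 and 0.02 and overlapping groups. Under median-of-ratios scaling HNRNPF was higher by 0.23 (limma adjusted p = 0.0019) and HNRNPH3 by 0.15 (limma adjusted p = 0.031).

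The largest change of all 42 was in CIRBP (chromosome 19, 1259384 to 1274880, plus strand), an RNA-binding protein induced by mild cold and by ultraviolet light or low oxygen. It measured 118, 114 and 157 TPM in the controls and 52.2, 62.2 and 52.9 TPM in DCBQ. The highest DCBQ library was far under the lowest control. The means were 129.7 ± 24 and 55.8 ± 5.6 TPM (SD, n = 3 per group), a 2.33-fold fall (-1.19, SE 0.12, limma adjusted p = 0.00011). RBM3 (chromosome X, 48574449 to 48579066, plus strand), the other cold-shock protein of this kind, measured 239, 173 and 201 TPM in the controls and 150.2, 155 and 138 TPM in DCBQ. Its fall was 1.38-fold (-0.45, SE 0.11, limma adjusted p = 0.0078), without overlap, and after median-of-ratios scaling it was not called (-0.21, limma adjusted p = 0.14). Their summed TPM was 357, 287 and 358 in the controls and 202, 217 and 191 in DCBQ.

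SR-related proteins have arginine-serine domains without being classical SR proteins. RBM39, a relative of the 3′ splice site factor U2AF2, measured 309, 311 and 304 TPM in the controls and 186, 224 and 227 TPM in DCBQ. All DCBQ libraries were far below the controls, a 1.45-fold fall (-0.54, SE 0.074, limma adjusted p = 0.00048). SRRM2, the large scaffold of nuclear speckles, measured 494, 477 and 490.4 TPM in the controls and 346, 378 and 368 TPM in DCBQ (-0.42, limma adjusted p = 0.00012). SRRM2 shares 190 exonic bases with ELOB on the opposite strand, which was at 156 to 162 TPM in the controls and 174 to 207 TPM in DCBQ. SRRM1, a coactivator that joins enhancer-bound SR proteins to the spliceosome, measured 172, 162 and 164 TPM in the controls and 147, 143 and 131 TPM in DCBQ (-0.24, limma adjusted p = 0.0069). SRRM2 stayed lower after median-of-ratios scaling (-0.18, limma adjusted p = 0.0067), and SRRM1 was then not called. SON, the other speckle scaffold, measured 119, 112 and 119 TPM in the controls and 122, 142 and 131 TPM in DCBQ. It just missed the call as deposited (0.17, limma adjusted p = 0.05), was called higher without DCBQ 1, and was higher by 0.41 (limma adjusted p = 0.00039) after median-of-ratios scaling.

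LUC7-like proteins belong to or assist the U1 snRNP at the 5′ splice site. LUC7L measured 64.8, 64.6 and 61.3 TPM in the controls and 41.8, 38.3 and 36.3 TPM in DCBQ, a 1.64-fold fall (-0.70, SE 0.065, limma adjusted p = 6.1e-05). LUC7L2 measured 118, 117 and 111 TPM in the controls and 80.8, 85.0 and 85.3 TPM in DCBQ, a 1.38-fold fall (-0.46, SE 0.047, limma adjusted p = 0.00011). Neither showed overlap, and for LUC7L2 this held also with its readthrough gene FMC1-LUC7L2 added. LUC7L3 measured 105, 99.9 and 96.0 TPM in the controls and 86.0, 109.7 and 96.0 TPM in DCBQ, and its groups overlapped (-0.05, limma adjusted p = 0.65). The ratio of LUC7L to LUC7L3 was 0.617, 0.647 and 0.639 in the controls and 0.486, 0.349 and 0.378 in DCBQ, so within this family too the response was unequal.

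Set side by side, the median difference of the SR, TRA2 and CLK genes minus that of the hnRNPs was -0.28. A single factor per library cannot move this gap by more than the pseudocount allows, so median-of-ratios scaling does not bear on it. Of the settings that can move it, quantile normalization gave -0.26, removal of a length and GC trend -0.24 and array weights -0.23. Taken library by library, as the family medians of each gene's deviation from its control mean, the gap was -0.0032, -0.032 and 0.027 in the controls and -0.36, -0.26 and -0.16 in DCBQ. No control library reached the DCBQ values, although DCBQ 1 contributed most, and without DCBQ 1 the gap was -0.19. The controls were measured against their own mean, which keeps them close to it, so part of this separation is built into the measure. No p is given for this gap because genes are not replicates. The summed TPM of the hnRNPs was 4824, 4749 and 4572 in the controls and 5128, 5191 and 5086 in DCBQ. That of the SR proteins was 1816, 1768 and 1826 in the controls and 1706, 1747 and 1748 in DCBQ. The hnRNP sum was thus 2.66, 2.69 and 2.50 times the SR protein sum in the controls and 3.01, 2.97 and 2.91 times in DCBQ. As deposited the groups did not overlap in either sum or in their ratio, but these differences turned on 1 gene and on scaling. Without HNRNPA2B1 the hnRNP sum was 4314, 4230.4 and 4112 TPM in the controls and 4211, 4302 and 4148 TPM in DCBQ, and its ratio to the SR protein sum was 2.38, 2.39 and 2.25 against 2.47, 2.46 and 2.37, both with overlap. After median-of-ratios scaling the direction of the SR protein sum turned, at 1641, 1619 and 1678 in the controls and 1917, 1828 and 1870 in DCBQ, while the hnRNP sum stayed higher in DCBQ.

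**Figure D3:**
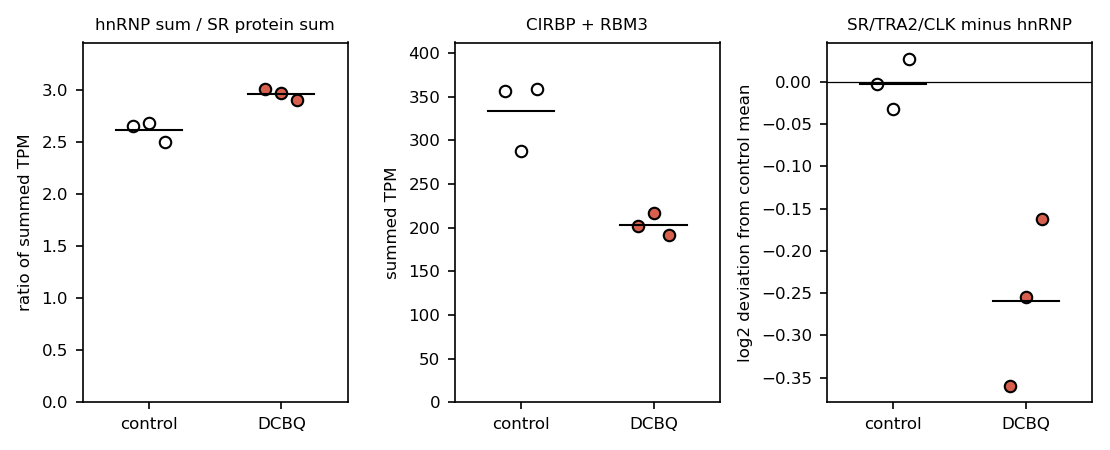
Left, summed hnRNP TPM divided by summed SR protein TPM, 2.50 to 2.69 in the controls and 2.91 to 3.01 in DCBQ, a separation lost without HNRNPA2B1. Middle, summed TPM of CIRBP and RBM3; right, median of the SR, TRA2 and CLK genes minus median of the hnRNPs in each library (log2 deviation from the control mean), with points for libraries and bars for group means in all 3 panels.

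Gene-level TPM adds up all transcripts of a gene, whether or not they can be translated. In GENCODE 29 a median of 50% of the annotated transcripts of the SR, TRA2 and CLK genes are classed as targets of nonsense-mediated decay or as retained introns, against 24.25% for the hnRNPs and 22.2% for 12567 protein-coding genes with a mean of at least 1 TPM. Among genes that fell, the share was 66.7% each for CLK1 and CLK4, 56.2% for TRA2B and 50% for SRSF6. Among genes that rose, it was 66.7% for SRSF9, 54.5% for SRSF2, 44.4% for HNRNPA2B1 and 23.5% for HNRNPM. Poly(A) selection keeps such transcripts where they are polyadenylated, so a change in TPM cannot be assigned to productive or unproductive forms here.

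Near-identical copies can take or give reads, and how these were counted is not stated. HNRNPA1 has 74 annotated pseudogenes by name, with a summed 27.7 to 33.6 TPM in the controls and 29.7 to 35.1 TPM in DCBQ, or 12.04% of the level of the gene. The share was 6.03% for HNRNPA3, 4.92% for HNRNPC and 6.8% for HNRNPL, and at most 1.49% for every other gene with named pseudogenes. The pseudogene sum of HNRNPL was 21.3 to 24.7 TPM in the controls and 15.6 to 15.9 TPM in DCBQ, opposite in direction to the gene. Of the antisense genes, HNRNPK-AS1, which shares 309 exonic bases with HNRNPK, was at 11.7 to 17.2 TPM in the controls and 6.45 to 8.77 TPM in DCBQ.

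Several regulators start back to back with another protein-coding gene, and 9 had such a partner on the opposite strand within 1000 bases. DYNLL1, a dynein light chain gene that starts 57 bases upstream of SRSF9, was higher with it (0.63, limma adjusted p = 5e-05). CBX5 and CBX3, which encode HP1 proteins of heterochromatin, share the start regions of HNRNPA1 and HNRNPA2B1 and were higher by 0.30 (limma adjusted p = 0.011) and 0.25 (limma adjusted p = 0.0011). In that last pair the rise of HNRNPA2B1, 0.88, was much the larger. HNRNPA2B1 and CBX3 share 368 exonic bases on opposite strands, and CBX3 was at 179 to 186 TPM in the controls and 213 to 221 TPM in DCBQ. RMI1, 95 bases upstream of HNRNPK, fell by 0.43 (limma adjusted p = 0.0033), and LRRC40, 62 bases upstream of SRSF11, fell by 0.17 (limma adjusted p = 0.045) as deposited. After median-of-ratios scaling neither was called, RMI1 at -0.20 (limma adjusted p = 0.07) and LRRC40 turned to 0.06 (limma adjusted p = 0.47). GART, a purine synthesis gene whose start overlaps SON, went the other way from it, at 123, 122 and 123 TPM in the controls and 83.0, 89.4 and 84.7 TPM in DCBQ (-0.52, limma adjusted p = 4.8e-05). SON shares 275 exonic bases with GART and 307 with DONSON, both on the opposite strand. GEMIN6 beside SRSF7 and TTC9C beside HNRNPUL2 were not called, and HCN3 beside CLK2 is listed at 0.

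The wider splicing machinery was read from 11 lists with 178 genes, of which 168 were tested. As deposited 35 were higher and 69 lower, that is 20.8% and 41.1%, against 13.4% and 39.5% of all tested genes. Among tested genes with a mean of at least 10 TPM the shares were 16.7% and 50.1%. Under median-of-ratios scaling the counts became 67 and 27, or 39.9% and 16.1%, against 23.7% and 23.2% of all tested genes. Under quantile normalization they were 53 and 32, or 31.5% and 19.0%, against 22.8% and 23.7%. Higher calls were thus more frequent than over all genes under both scalings. The list counts after median-of-ratios scaling below have the same background of 23.7% and 23.2%. Lists differed from each other, and each is described here by its counts and median beside the median of -0.21 over all tested genes. The spliceosomal particles are given first. In the U1 snRNP and Sm list 8 of 12 were higher and 1 lower (median 0.20), and after median-of-ratios scaling 10 and 1. SNRPD3, a protein of the Sm ring, went from 54.0 ± 2.1 TPM to 89.6 ± 5.8 TPM (0.72, limma adjusted p = 4.0e-05), and SNRPG of the same ring rose by 0.67. In the U4/U6.U5 tri-snRNP list 7 of 19 were higher and 2 lower (median 0.10; 12 and 0 after median-of-ratios scaling). LSM3 rose by 0.68 and the U5 GTPase EFTUD2 by 0.50, and PRPF3 and SNRNP27 fell by 0.32 and 0.40 as deposited. Neither was called after median-of-ratios scaling, at -0.08 (limma adjusted p = 0.31) and -0.17 (limma adjusted p = 0.18), or after quantile normalization. The U2 snRNP, SF3 and U2AF list was divided, with 6 of 19 higher and 7 lower (median -0.04; 10 and 1 after median-of-ratios scaling). SNRPA1, the U2 A′ protein, went from 72.1 ± 2.9 TPM to 126 ± 0.57 TPM (0.80, limma adjusted p = 5.8e-06), and SF3A3 rose by 0.69. The branch point protein gene SF1 and SF3A2 fell by 0.43 and 0.34, and SF3A2 was not called after median-of-ratios scaling (-0.10, limma adjusted p = 0.18).

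Lists of surveillance factors and of regulators follow. In the exon junction complex and nonsense-mediated decay list 12 of 15 were lower and 1 higher (median -0.40; 7 and 2 after median-of-ratios scaling). CASC3 went from 140.2 ± 1.4 TPM to 81.3 ± 7.0 TPM (-0.78, limma adjusted p = 3.5e-05), while the core helicase EIF4A3 rose by 0.36. Among 22 other sequence-specific regulators 12 were lower and 2 higher (median -0.31; 4 and 6 after median-of-ratios scaling). MBNL2, a muscleblind protein, measured 134, 135 and 127 TPM in the controls and 38.7, 53.7 and 39.9 TPM in DCBQ (-1.57, limma adjusted p = 1.7e-05). QKI, a STAR-family binder, measured 129, 133 and 128 TPM in the controls and 49.9, 56.7 and 64.3 TPM in DCBQ (-1.18, limma adjusted p = 1.6e-05). Neither showed overlap, and MBNL2 fell further than any of the 42 regulators. RBFOX2 measured 4.97, 4.74 and 5.33 TPM in the controls and 17.5, 14.9 and 5.01 TPM in DCBQ, and its higher call (1.01, limma adjusted p = 0.049) rested on DCBQ 1 and DCBQ 2. Leaving out any single library but DCBQ 3 ended it. RBM47, an epithelial regulator, rose by 0.32.

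Among 27 other SR-related and speckle proteins 15 were lower and 2 higher (median -0.22; 7 and 6 after median-of-ratios scaling). The cyclin L genes parted: CCNL2 fell by 0.80 and CCNL1 rose by 0.41. SCAF8 fell by 0.92, and CCNK rose by 0.30, a call lost without control 1, control 2, DCBQ 2 or DCBQ 3. In the PRP19 and catalytic-step list 11 of 20 were lower and 3 higher (median -0.17; 3 and 5 after median-of-ratios scaling). BUD31 went from 183 ± 3.8 TPM to 94.9 ± 8.4 TPM (-0.94, limma adjusted p = 1.4e-05) and RBM22 fell by 0.77. The helicase gene DHX8 rose by 0.41 and XAB2 by 0.25, the last not called without control 1. Of 7 genes in the list of SR protein kinases and importer, 4 were lower and 0 higher (median -0.21). SRPK2, a cytoplasmic SR protein kinase, went from 45.2 ± 2.6 TPM to 26.8 ± 2.4 TPM (-0.74, limma adjusted p = 0.00013). After median-of-ratios scaling 1 of the 7 was lower and 2 higher. DYRK1A fell by 0.54 as deposited. Its call was lost without DCBQ 1 or DCBQ 2, after median-of-ratios scaling (-0.31, limma adjusted p = 0.16) and after quantile normalization (-0.27, limma adjusted p = 0.23).

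Of 12 further hnRNP-family genes 3 were higher and 2 lower (median -0.04, and 9 and 2 after median-of-ratios scaling). HNRNPH2 rose by 0.56 and RALY by 0.21, while PCBP2 fell by 0.49, and the low HNRNPLL went from 6.56 ± 0.64 to 2.94 ± 0.64 TPM. Of 6 paraspeckle components 2 were higher and 0 lower (median 0.05, and 3 and 0 after median-of-ratios scaling). SFPQ rose by 0.42 and PSPC1 by 0.24. In the minor spliceosome list, which serves U12-type introns, 1 of 9 was higher and 3 lower (median -0.19, and 2 and 1 after median-of-ratios scaling). SNRNP25 rose by 0.45, and PDCD7 and ZCRB1 fell by 0.54 and 0.29 as deposited. The call of ZCRB1 was lost without control 2, DCBQ 1 or DCBQ 2, and its difference was -0.06 (limma adjusted p = 0.61) after median-of-ratios scaling and -0.04 (limma adjusted p = 0.73) after quantile normalization.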

How the data were processed

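The 3 control and 3 DCBQ libraries of SV-HUC-1 RNA were poly(A)-selected, per the labels' protocols. The authors deposited 1 table of TPM for 60624 Ensembl identifiers, each library summing to 1000000, so depth is unknown. The submitters' processing notes name hg38 and, without their roles, DESeq2 1.34.0, StringTie 2.1.7, HISAT2 2.2.1, Trimmomatic 0.38 and FastQC. Annotation, strand use, handling of multi-mapped reads and the source of the TPM were not given in the sources used here.

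The regulators were found by symbol through a table of Ensembl identifiers and GENCODE 29, which also gave coordinates (GRCh38, 1-based), transcript classes and overlaps. Genes with a mean of at least 1 TPM were compared between the groups by limma 3.58.1 in R 4.3.3 (lmFit, then eBayes with trend), applied to log2(TPM + 1), two-sided, with Benjamini-Hochberg adjustment over 16734 genes. Differences on this scale understate the change of low genes, and folds are ratios of mean TPM without pseudocount. In simulated data for this comparison (16734 genes) it recovered 2% of 50 genes changed by 0.25, 34% of 50 by 0.5, 74% of 50 by 1 and 98% of 50 by 2 (log2). Few genes were changed in that simulation, which gave 108 calls against 8857 in the data. Its adjustment was therefore stricter, and these shares do not give the recovery in the data. Tables, promoter matches and figures used Python 3.11.15, pandas 2.3.3, numpy 2.4.6 and matplotlib 3.10.9.

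Named genes are all 42 regulators and, in each of 11 further lists (178 genes), the 2 largest increases and 2 largest decreases among called genes, 37 in all. Pseudogenes, overlapping genes, genes starting within 1000 bases of a regulator and genes within 100000 bases of CLK2 were taken by name or position and described after values had been seen. The regulators and lists were chosen with earlier results of these data known.

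There were 19 alternatives. They were pseudocounts of 0.1 and 5, no filter or a mean of at least 5 TPM, 3 scalings (quantile, median-of-ratios, and rescaling without mitochondrially encoded genes), eBayes without trend or robust, array weights, replicate number as a blocking term, and the omission of each library in turn. Another 2, removal of a length and GC trend and protein-coding nuclear genes only, were among the 19 but added after seeing the data. Values of some genes in these lists are not reported here by name.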

Additional observations from a re-analysis of the deposited data

How the results depend on the processing

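The direction of a regulator near the median gene depended on how libraries were scaled. The numbers of the 41 regulators called lower (22 as reported) were 14 under quantile normalization, 9 under median-of-ratios scaling, 12 without mitochondrially encoded genes, 13 with protein-coding nuclear genes only and 8 after removal of a length and GC trend. The numbers called higher (9) were 16 under median-of-ratios scaling and 16 after the length and GC trend. Of the further splicing genes, those called higher (35) became 53 under quantile normalization, 67 under median-of-ratios scaling and 70 after the length and GC trend, and those called lower (69) became 32, 27 and 27, and 45 without mitochondrially encoded genes. The cause was not tested. Leaving out 1 library at a time gave 8 to 10 regulators higher and 17 to 19 lower, 27 to 32 further splicing genes higher and 58 to 68 lower, 7678 to 8436 calls over all genes, and a median of the SR, TRA2 and CLK genes minus that of the hnRNPs of -0.30 to -0.19.

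Differences that changed sign were as follows. Median-of-ratios scaling gave SRSF1 0.0463, SRSF7 0.0621, TRA2A 0.207, CLK3 0.237, HNRNPA0 0.0121, HNRNPF 0.231, HNRNPH3 0.147, HNRNPK 0.0969, HNRNPUL1 0.127 and LUC7L3 0.189. Quantile normalization gave TRA2A 0.0952, CLK3 0.209, HNRNPA0 0.00670, HNRNPF 0.0622 and LUC7L3 0.0942. Leaving out mitochondrially encoded genes gave TRA2A 0.0993, CLK3 0.131, HNRNPF 0.123, HNRNPH3 0.0388, HNRNPUL1 0.0184 and LUC7L3 0.0816. With protein-coding nuclear genes only the values were TRA2A 0.0967, CLK3 0.129, HNRNPF 0.120, HNRNPH3 0.0361, HNRNPUL1 0.0158 and LUC7L3 0.0790. The length and GC trend gave SRSF1 0.0221, SRSF4 0.0528, SRSF7 0.0258, TRA2A 0.138, CLK3 0.352, HNRNPA0 0.128, HNRNPF 0.159, HNRNPH1 0.0142, HNRNPH3 0.121, HNRNPK 0.0583, HNRNPU 0.00250, HNRNPUL1 0.0923 and LUC7L3 0.290. Array weights gave CLK3 0.0409, HNRNPF 0.00590 and HNRNPR -0.0291. Leaving out single libraries also changed signs: TRA2A ranged from -0.0932 to 0.0165 (sign changed without control 2 or DCBQ 1), CLK3 ranged from -0.0567 to 0.0475 (sign changed without control 1 or DCBQ 1 or DCBQ 2), HNRNPF ranged from -0.0282 to 0.0241 (sign changed without DCBQ 1), HNRNPR ranged from -0.0829 to 0.0752 (sign changed without control 2 or DCBQ 1), LUC7L3 ranged from -0.140 to 0.0333 (sign changed without DCBQ 1). Pseudocounts of 0.1 and 5 changed the call of 0 of the 41.

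Replicate numbers gave no clear pairing of the libraries: deviations of same-numbered libraries correlated at -0.04, 0.05 and 0.05, and the other pairs at -0.07 to 0.03. Control 2 and control 3 correlated best with the DCBQ library of their own number, and control 1 did not. Correlations this small cannot exclude pairing. With the replicate block 9 regulators were higher and 22 lower, 34 and 67 of the further splicing genes, but SRSF7 became called lower (limma adjusted p = 0.049) and HNRNPUL1 lost its call (limma adjusted p = 0.060). The number of all genes called was 8500 against 8857. Depth is unknown, so no limit of detection can be given.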
